A study of Mus musculus with 29 samples.

Results

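The olfactory receptor genes of mouse chromosomes 10 and 11 were described by the H2Aub type that covers them. Members were the protein-coding RefSeq genes of the mm10 build on these chromosomes whose symbol is Olfr followed by digits. There were 151 of them, 68 on chromosome 10 and 83 on chromosome 11, out of 1099 such genes on chromosomes 1 to 19. All protein-coding genes on those chromosomes numbered 20558, of which 1001 lay on chromosome 10 and 1602 on chromosome 11. The choice of members used gene symbols and positions, and no H2Aub value.

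Each Olfr gene encodes a G protein-coupled receptor that binds odorants, and each olfactory sensory neuron is known to express a single allele of a single receptor gene. The genes lie in tandem arrays that arose by duplication, and in tissues other than the nose they are largely silent. H2Aub is histone H2A carrying ubiquitin at a lysine near its end (H2AK119ub), which Polycomb repressive complex 1 deposits and the deubiquitinase PR-DUB removes. H3K27me3 is the mark of Polycomb repressive complex 2, of which Eed is a core subunit.

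The study profiled both marks in 29 libraries of 16 groups with CUT&RUN, where an antibody directs a nuclease to cut out the DNA that carries a mark. The manipulated groups were H2Aub libraries from Gdf9-Eed (fl/fl) oocytes (GV) and from 4-cell and morula embryos of such mothers crossed to WT, 2 libraries each (Eed MatKO, B6/129 mixed, embryos x PWK), and 4-cell embryos labelled PR-DUB (OE) (B6/DBA x PWK), with 1 H2Aub and 2 H3K27me3 libraries. Gdf9 drives expression in growing oocytes, so that deletion precedes fertilisation. Their controls were PR-DUB (CTR) 4-cell embryos in the same numbers, and WT-titled GV, 4-cell and morula libraries, which carry Eed (fl/fl) without Gdf9 (B6/129 mixed, embryos x PWK). The WT H2Aub series comprised 16 libraries in 8 stages, from GV and MII oocytes (B6/DBA for MII) through 1-cell, 2-cell, 4-cell, morula and inner cell mass to the epiblast of embryonic day 6.5, with 1 to 3 libraries a stage. Of the 3 2-cell libraries, 2 carried Eed (fl/fl), and the 1-cell, inner cell mass and epiblast libraries were B6/DBA x PWK. There was also 1 H3K27me3 library of WT GV oocytes (B6/DBA). Libraries pooled 1 to 300 oocytes or embryos where the labels give a number.

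The values used here are a deposited genome segmentation that assigns each stretch of chromosomes 1 to 19 to 1 of 5 H2Aub types, numbered 1 to 5. It has no key to the types, no signal level and no column for any library. The type numbers are therefore names without order: a share below says how many genes lie in a type, and says nothing of how much H2Aub a gene carries, at which stage, or in which genotype. No replicate could be compared, the depth is unknown, and no test between groups was made. Each gene took the type with the most bases of its body, from first to last annotated base. Intervals are exact 95% Clopper-Pearson intervals, which cover counting error only. Neighbouring genes share segments and are not independent, so these intervals are too narrow.

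Members alike in the 300 bases about the annotated start could lie in different types, and 2 such pairs are shown to make this visible. Most alike pairs did not differ: of 11 pairs with 80% identity or more, 8 were of the same type. Each sequence is the stretch of 250 bases before the start that the RefSeq promoter table gives (GRCm38.p6, the build of mm10), read 5′ to 3′ on the strand of the gene. That start is the first base of the annotated body for all of them but Olfr1373, where it lies 3.6 kb inside the body. Capitals mark letters that differ from the partner in their alignment, insertions included. The pairs were picked after their types had been seen. The first pair is Olfr775 (chr10:129250286-129250535, + strand, type 2) and Olfr776 (chr10:129260713-129260962, + strand, type 1), which are neighbours on chromosome 10 with 83.1% identity.
Olfr775: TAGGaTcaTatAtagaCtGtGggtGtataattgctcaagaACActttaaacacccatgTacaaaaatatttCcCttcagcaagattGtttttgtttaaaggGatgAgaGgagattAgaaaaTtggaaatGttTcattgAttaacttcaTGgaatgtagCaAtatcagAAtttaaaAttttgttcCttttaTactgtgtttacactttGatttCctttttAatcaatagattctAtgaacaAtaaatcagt
Olfr776: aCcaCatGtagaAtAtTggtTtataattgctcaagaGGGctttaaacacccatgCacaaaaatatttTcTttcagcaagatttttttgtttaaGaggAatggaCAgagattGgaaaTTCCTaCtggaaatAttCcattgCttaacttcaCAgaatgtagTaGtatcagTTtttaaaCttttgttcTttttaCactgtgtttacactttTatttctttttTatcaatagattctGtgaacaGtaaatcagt
The second pair is Olfr1382 (chr11:49534937-49535186, + strand, type 5) and Olfr1373 (chr11:52145529-52145778, - strand, type 1), which lie 2609.4 kb apart on chromosome 11 in separate clusters with 93.4% identity.
Olfr1382: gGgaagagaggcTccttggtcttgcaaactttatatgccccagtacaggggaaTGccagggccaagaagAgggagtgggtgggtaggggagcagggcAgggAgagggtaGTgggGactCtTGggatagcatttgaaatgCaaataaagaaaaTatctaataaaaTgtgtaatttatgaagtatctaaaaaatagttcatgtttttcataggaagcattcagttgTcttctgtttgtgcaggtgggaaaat
Olfr1373: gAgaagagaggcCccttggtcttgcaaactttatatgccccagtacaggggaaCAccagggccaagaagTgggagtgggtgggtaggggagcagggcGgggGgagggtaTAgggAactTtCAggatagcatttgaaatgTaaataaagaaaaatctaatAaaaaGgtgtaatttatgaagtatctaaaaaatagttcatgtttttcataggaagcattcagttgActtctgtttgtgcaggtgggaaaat
Identities were measured over 300 bases, the 250 shown and the 50 that follow. Olfr775 lies in a type 2 segment of 10 kb and Olfr776 begins the next segment, a type 1 stretch of 155 kb. The type of Olfr775 changes when 20 kb on each side of the body are counted with it. Olfr1382 lies in a type 5 segment of 115 kb, and Olfr1373 in a type 1 segment of 120 kb.

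On chromosome 10, 35 of 68 members were in type 1 (51.5%, interval 39.0 to 63.8%) and 26 in type 5 (38.2%, 26.7 to 50.8%). The other 7 comprised 5 members in type 3, 1 in type 2 (Olfr775) and 1 in type 4 (Olfr1357). All protein-coding genes of the chromosome, its background, were 41.2% type 1, 6.49% type 2, 34.5% type 3, 9.99% type 4 and 7.89% type 5. Chromosome 11 members were spread more widely, with 25 of 83 in type 1 (30.1%, 20.5 to 41.2%), 23 in type 5 (27.7%, 18.4 to 38.6%) and 19 in type 4 (22.9%, 14.4 to 33.4%). Type 2 held 10 (12.05%) and type 3 held 6 (7.23%). The background of chromosome 11 was 31.1% type 1, 3.18% type 2, 41.9% type 3, 18.9% type 4 and 4.99% type 5. The intervals for type 4, 0.037 to 7.92% on chromosome 10 and 14.4 to 33.4% on chromosome 11, did not overlap, and those of the other 4 types overlapped. Neighbours share segments, so the intervals are too narrow and their overlap is no test between the chromosomes. The type 4 difference also depends on how genes are weighted. With each cluster counted once, by the type with most of its span, type 4 took 50.0% of the 2 clusters on chromosome 10 and 57.1% of the 7 on chromosome 11. Without the largest cluster of each chromosome it held 10% of 10 members on chromosome 10 and 33.96% of 53 on chromosome 11. Types 1 and 5 together took 61 of the chromosome 10 members and 48 of the chromosome 11 members.

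Over both chromosomes, type 1 held 39.7% of members, against a background of 37.2% among all protein-coding genes on chromosomes 1 to 19. Type 2 held 7.28% of members (background 5.44%), as did type 3, for which the background was 33.8%. Type 4 took 13.2% (14.0%), while type 5 took 32.5% (9.53%). Pooled in this way, the type 1, 2 and 4 shares were near the background, type 3 was lower and type 5 higher. These backgrounds include the Olfr genes themselves: without them, type 5 held 5.68% of protein-coding genes on chromosome 10 and 3.75% on chromosome 11. Members had 7.35% in type 3 on chromosome 10 and 7.23% on chromosome 11, and 38.2% and 27.7% in type 5, so type 3 was below and type 5 above the chromosome's own background on each. On chromosome 10 this rests on 1 cluster: of the 10 members outside the cluster of Olfr9 to Olfr827, 50.0% were type 3 and 0% type 5. Type 2 took 1.47% of chromosome 10 members, below the background of 6.49%, and 12.05% of chromosome 11 members (interval 5.93 to 21.0%), above the background of 3.18%. The type 2 members of chromosome 11 lay in 5 segments, and 6 of these members were in the Olfr20 to Olfr412 cluster. Without that cluster type 2 held 7.55% of 53 members, and with each of the 7 clusters counted once it took 0%. The type 4 share of chromosome 10 members, 1.47%, lay below its background of 9.99%, and that of chromosome 11 members, 22.9%, stood close to its background of 18.9%.

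The chromosomes also differed in type 4 outside the Olfr genes. Type 4 held 10.6% of the 933 other protein-coding genes on chromosome 10 and 18.6% of the 1519 on chromosome 11. Among the few such genes inside the clusters the order was the opposite, with 5 of 6 in type 4 on chromosome 10 and 4 of 8 on chromosome 11. By length, type 4 covered 9.23% of chromosome 10 and 20.3% of chromosome 11, while type 5 covered 21.4% of chromosome 10 and 9.93% of chromosome 11. The part of the chromosome's own makeup in the difference between the members was not tested.

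The 948 Olfr genes on the other autosomes were 59.5% type 5, 28.7% type 1, 4.54% type 4, 4.01% type 3 and 3.27% type 2. The type 5 share of members, 38.2% on chromosome 10 and 27.7% on chromosome 11, was lower than that pooled share, which differed widely between autosomes. Chromosome 2, with 286 Olfr genes, had 87.1% in type 5 and 0.35% in type 4. Below the members in type 5 were, for example, chromosome 17, with 26.0% of 50, and chromosome 4, with 16.7% of 24, where 50.0% were type 4. Olfr pseudogenes, which are left out of all other counts, were of type 1 in 9 and type 5 in 3 of 12 on chromosome 10. Of 21 on chromosome 11, 13 were type 1, 4 type 5, 3 type 4 and 1 type 2.

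**Figure D1:**
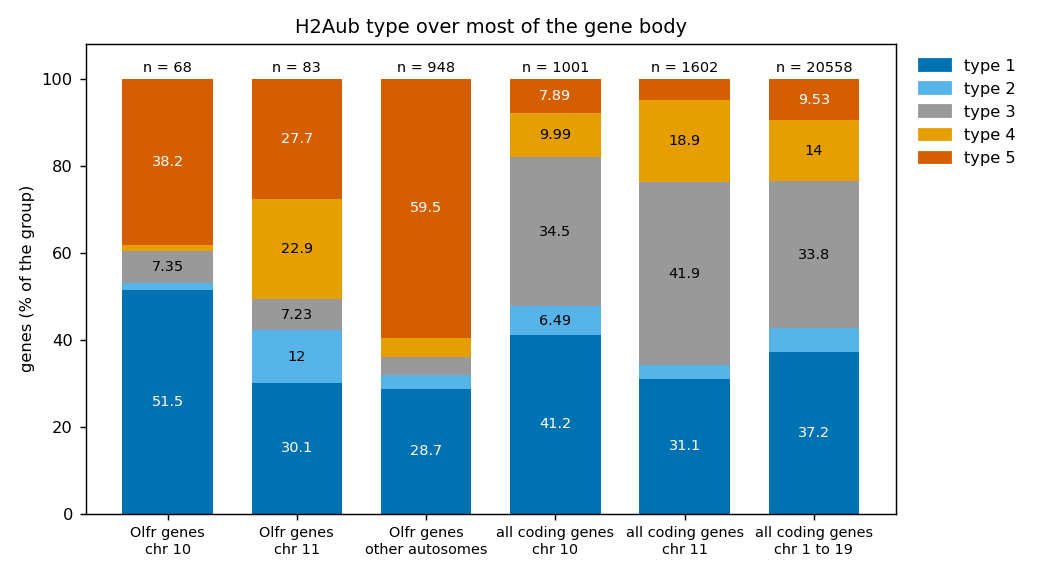
Percent of genes in each H2Aub type (vertical axis) for the Olfr genes of chromosomes 10 and 11, the Olfr genes of the other autosomes and all protein-coding genes. Type 4 takes 1.47% of chromosome 10 members and 22.9% of chromosome 11 members, and type 5 takes a larger share of members than of all protein-coding genes.

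Members were grouped into clusters wherever neighbours lay less than 500 kb apart, and no member lay alone. Chromosome 10 had 2 clusters and chromosome 11 had 7. The body of 146 of the 151 members lay wholly in 1 type. The median body was 939 bp on chromosome 10 and 954 bp on chromosome 11, while segments start and end on multiples of 5 kb. A member's type thus usually rests on a single bin or a pair of bins.

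The larger cluster of chromosome 10 runs from Olfr9 to Olfr827 (chr10:128989914-130211128, 1221.2 kb) and holds 58 members, 31 in type 1, 26 in type 5 and Olfr775 in type 2. Type 1 covered 54.9% of its span and type 5 41.0%, while type 4 covered none of it. These types came in alternating blocks. Olfr9 lay in a type 1 segment of 25 kb, and after a type 3 gap of 10 kb a type 1 segment of 215 kb held 9 members from Olfr763 to Olfr773. Olfr774 (type 1) and Olfr775 (type 2) each had a segment of 10 kb, with a type 2 segment of 10 kb without members before them. A type 1 segment of 155 kb then held 7 members from Olfr776 to Olfr785.

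Beyond Olfr785 the 5 members from Olfr786 to Olfr790 lay in type 5 (95 kb), 3 from Olfr791 to Olfr794 in type 1 (100 kb), 8 from Olfr796 to Olfr804 in type 5 (110 kb) and 7 from Olfr805 to Olfr811 in type 1 (105 kb). After a type 3 segment of 20 kb that held no member, 5 from Olfr812 to Olfr816 were type 5 (85 kb), 3 from Olfr818 to Olfr247 type 1 (75 kb), and the last 8, Olfr820 to Olfr827, type 5. That last segment is 375 kb long and runs past the end of the cluster. No type 5 member was among the first 19 members, and each of the 4 type 5 segments held at least 5 members. Olfr785 was the only member of this cluster to span a border, with 67.4% of its 939 bp in type 1 and 32.6% in type 5.

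The smaller cluster, Olfr1358 to Olfr57 (chr10:78498183-79035802, 537.6 kb), had 10 members in 16 segments and none in type 5. Olfr1358, Olfr1356, Olfr1353, Olfr1352 and Olfr1351 were type 3, which makes it the home of all 5 type 3 members of the chromosome. Olfr1355, Olfr1354, Olfr8 and Olfr57 were type 1, and Olfr1357 type 4. The share of the span was highest for type 4, at 41.9%, although it held a single member. The type 4 stretches held other genes instead: Ilvbl, Syde1, Casp14 (a caspase of the skin) and Ccdc105 lay wholly in type 4, and Slc1a6, a glutamate transporter, was 42.9% type 4. Olfr1358, whose annotated body is 23101 bp long, was 51.2% type 3 and 48.8% type 4. Olfr1353 (7304 bp) was 76.8% type 3 and 23.2% type 1.

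The type 3 segment of Olfr1358 is 90 kb long and runs out of the cluster. The other type 3 members sat in short segments, 15 kb for Olfr1356, 25 kb for Olfr1353 and Olfr1352, and 20 kb for Olfr1351, set among type 1 segments of 15 to 75 kb. Neighbouring members shared a type in 4 of 9 cases here and in 48 of 57 cases in the Olfr9 to Olfr827 cluster. The sequence of Olfr787 (chr10:129462428-129462677, + strand), the first type 5 member on chromosome 10 with a window, shows the A and T rich end of the range. Its 24.4% G and C is the lowest of the 21 type 5 windows of the chromosome, which reach 39.2%. The window lies in type 5, and its start is 0.74 kb inside the annotated body. None of the 4 motifs searched was in it, and so it has no capitals.
Olfr787: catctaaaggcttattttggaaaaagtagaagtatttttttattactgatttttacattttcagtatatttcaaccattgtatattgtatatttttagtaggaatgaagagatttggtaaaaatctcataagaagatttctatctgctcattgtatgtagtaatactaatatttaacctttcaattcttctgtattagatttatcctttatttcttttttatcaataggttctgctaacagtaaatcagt

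**Figure D2:**
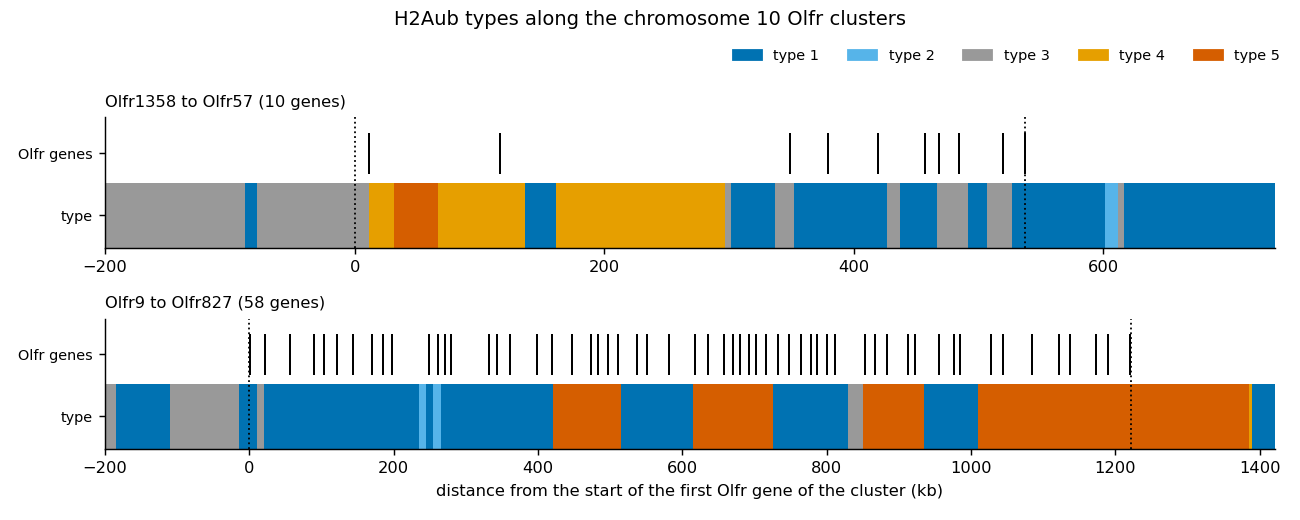
H2Aub types along the clusters of chromosome 10, against distance in kb from the start of the first Olfr gene, with coloured blocks for segments, ticks for members and dotted lines for the ends of the cluster. In the Olfr9 to Olfr827 cluster type 1 and type 5 blocks alternate, and in the Olfr1358 to Olfr57 cluster no member lies in type 5.

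On chromosome 11 the cluster from Olfr20 to Olfr412 (chr11:73350859-74365609, 1014.8 kb) has 30 members and was mainly type 1, with 81.3% of its span and 20 members in that type. Olfr20, Olfr376 and Olfr1 at its lower end lay in a type 5 segment of 115 kb. A type 1 segment of 555 kb followed, the longest that touched any cluster, and held 15 members from Olfr378 to Olfr397. A type 4 segment of 10 kb held Olfr398 alone. The 6 type 2 members were Olfr139 and Olfr399 (25 kb), Olfr59 (10 kb) and Olfr410 to Olfr412 (50 kb, at the higher end). Olfr401, Olfr402 to Olfr43 and Olfr406 lay in type 1 segments of 75, 55 and 60 kb between them. Zfp735 and Zfp616, zinc finger genes inside the cluster, were wholly type 1.

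The Olfr1396 to Olfr1380 cluster (chr11:49112777-49564858, 452.1 kb) had 19 members, 12 in type 5, 5 in type 4 and 2 in type 2. Its lower end was type 4, with Olfr1396 in a segment of 45 kb and Olfr56, Olfr1395 and Olfr1394 in a segment of 60 kb. Olfr1393, the longest member at 28487 bp, touched 3 segments, with 52.7% of its body in type 4, 43.4% in type 5 and 3.96% in type 3. From there the cluster was mainly type 5, 7 members from Olfr1392 to Olfr1387 in a segment of 190 kb and 5 from Olfr1384 to Olfr1380 in a segment of 115 kb. Between them a type 2 segment of 25 kb held Olfr1386 and Olfr1385. Olfr1385 was 50.1% type 2 and 49.9% type 5, so its type rests on a few bases. Of the other genes among these receptors, Btnl9, a butyrophilin-like gene, was type 4, in the segment of Olfr56, Olfr1395 and Olfr1394. Zfp62 was 56.7% type 1 and Mgat1, an enzyme of N-glycan synthesis, 83.9% type 2.

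The windows before Olfr1396 (type 4, chr11:49113758-49114007, - strand) and Olfr1392 (type 5, chr11:49293047-49293296, + strand) show the first members of these types on chromosome 11. Capitals mark TAATGA in both, and TATAAA on the opposite strand, read as TTTATA, in Olfr1392.
Olfr1396: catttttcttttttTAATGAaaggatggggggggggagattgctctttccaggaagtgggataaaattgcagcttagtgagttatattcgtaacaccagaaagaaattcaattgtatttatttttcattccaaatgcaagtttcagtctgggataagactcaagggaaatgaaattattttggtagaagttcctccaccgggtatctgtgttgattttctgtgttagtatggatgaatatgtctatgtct
Olfr1392: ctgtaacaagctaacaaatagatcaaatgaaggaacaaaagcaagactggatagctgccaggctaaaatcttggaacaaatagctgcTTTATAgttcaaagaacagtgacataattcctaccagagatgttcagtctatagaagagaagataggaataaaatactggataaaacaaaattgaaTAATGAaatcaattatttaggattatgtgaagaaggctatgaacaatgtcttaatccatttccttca

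The Olfr30 to Olfr311 cluster (chr11:58454915-58842042, 387.1 kb) was the only cluster with members in all 5 types. Its 21 members were 7 type 5, 6 type 4, 3 type 3, 3 type 1 and 2 type 2, in 12 segments. Read from the lower end, Olfr30 and Olfr332 were type 4, 6 members from Olfr331 to Olfr325 type 5 (85 kb), Olfr324 and Olfr323 type 4, Olfr322 type 5 (10 kb) and Olfr320 type 3. Olfr319 to Olfr317 were then type 1 (40 kb), Olfr316 type 3, Olfr315 and Olfr314 type 4, Olfr313 and Olfr312 type 2, and Olfr311 type 3, the last 4 segments with members being 30 kb each. Neighbouring members shared a type in 11 of 20 cases, against 24 of 29 in the Olfr20 to Olfr412 cluster and 15 of 18 in the Olfr1396 to Olfr1380 cluster. The genes 2210407C18Rik, Trim58 (a ubiquitin ligase of red cell precursors) and Fam183b, which lie inside, were wholly type 4.

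The other 4 clusters of chromosome 11 held 5 members or fewer. In Olfr1378 to Olfr1375 (chr11:50969020-51049050) Olfr1378 and Olfr1377 were type 4, Olfr51 and Olfr1375 type 3 and Olfr54 type 5. Olfr51 lay in a segment of 5 kb, which is a single bin. Olfr1373 and Olfr1371 (chr11:52144593-52213987) shared a type 1 segment. Olfr222 and Olfr223 were type 4 and Olfr225 type 3 (chr11:59570782-59614225). Olfr462 to Olfr464 (chr11:87888959-87915003) lay together in a type 4 segment of 55 kb. Of the 19 type 4 members of chromosome 11, 7 were in these small clusters, 6 in the Olfr30 to Olfr311 cluster, 5 in the Olfr1396 to Olfr1380 cluster and 1 in the Olfr20 to Olfr412 cluster.

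**Figure D3:**
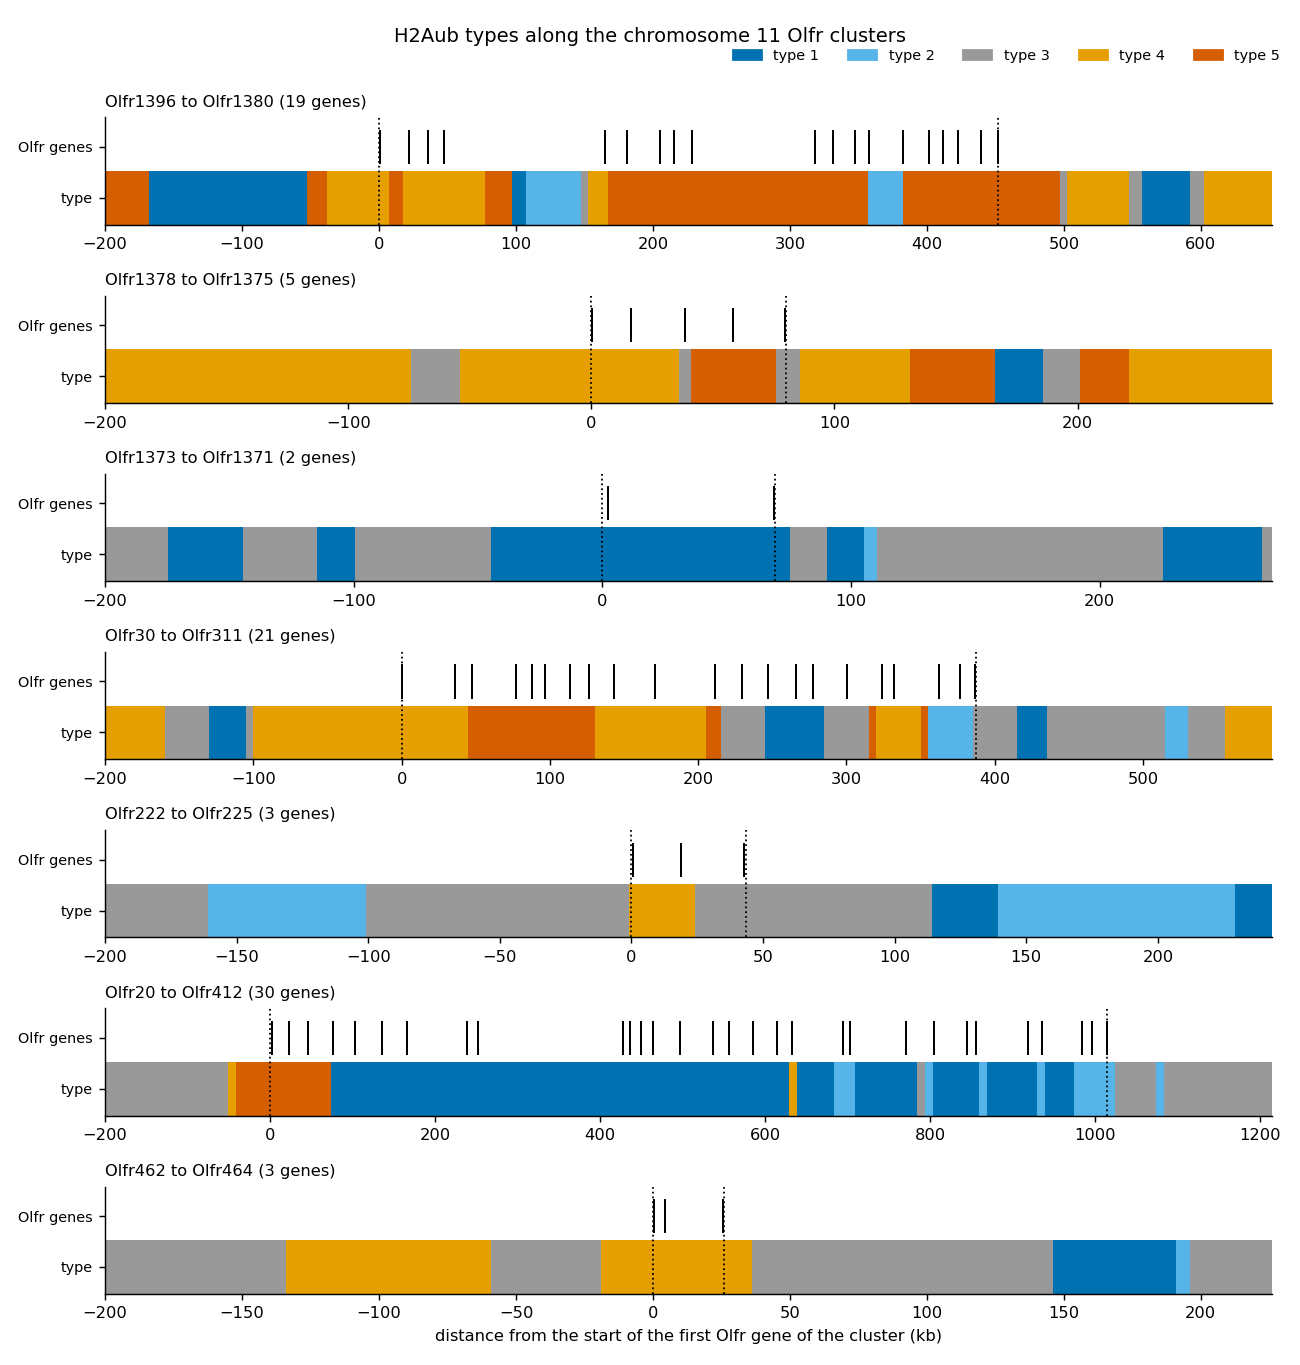
H2Aub types along the 7 clusters of chromosome 11, drawn as distance in kb from the start of the first Olfr gene of each, with ticks for members and dotted lines for cluster ends. The Olfr20 to Olfr412 cluster is largely type 1, the Olfr1396 to Olfr1380 cluster largely type 5, and the Olfr30 to Olfr311 cluster has members in all 5 types.

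Pooled over clusters, members sat in fewer and longer blocks on chromosome 10 than on chromosome 11. Of 31 segments touching the chromosome 10 clusters, 20 held members, with a median length of 75 kb, against 20 kb for the 11 that held none. Of 45 touching the chromosome 11 clusters, 33 held members (median 45 kb), and the median of the 12 without was 10 kb. The 7 segments with 5 or more members on chromosome 10 (3 type 1 and 4 type 5) held 49 of 68 members. All 7 lay in the Olfr9 to Olfr827 cluster. In the Olfr1358 to Olfr57 cluster, of 16 segments, none held more than 2 of the 10 members. On chromosome 11, 4 segments with 5 or more members (1 type 1 and 3 type 5) held 33 of 83. No type 2, type 3 or type 4 segment held as many as 5 members on either chromosome. A longer segment can hold more genes by its length alone, and that part was not tested.

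**Figure D4:**
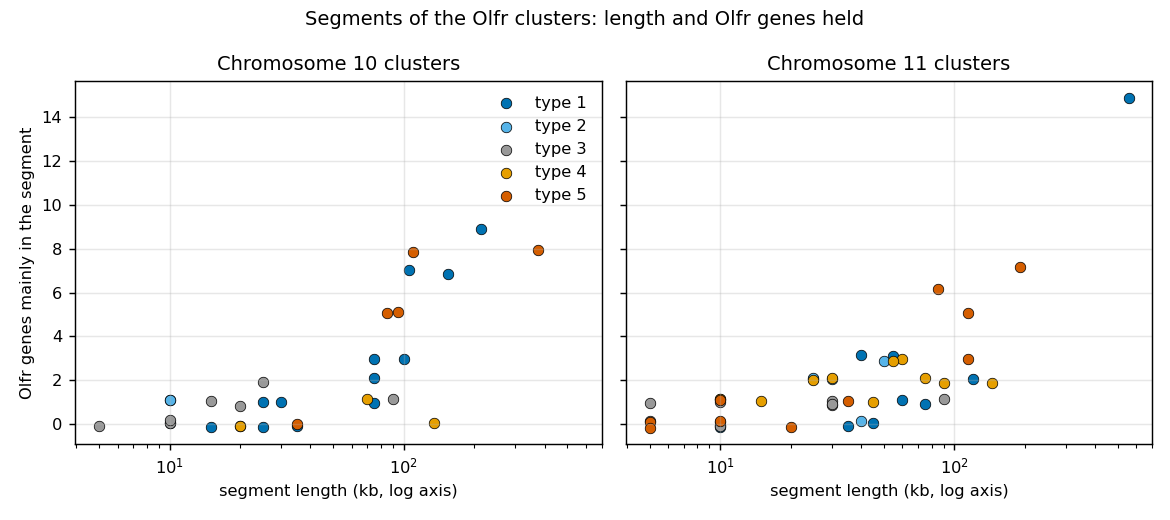
Length of each segment touching a cluster (horizontal axis, kb) against the Olfr genes mainly in it (vertical axis, with small vertical shifts to separate points), coloured by type, for chromosomes 10 and 11. All segments with 5 or more members are type 1 or type 5, up to 15 members in the 555 kb type 1 segment of chromosome 11.

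Counted gene by gene, neighbouring members shared a type in 52 of 66 cases on chromosome 10 and 55 of 76 on chromosome 11. The same count for other adjacent genes was not made. The distance from a member to the nearest border had a median of 26.8 kb on chromosome 10 and 17.97 kb on chromosome 11, over members that cross none. On chromosome 10, 7 members lay within 5 kb of a border and 3 across one, and on chromosome 11 17 lay within 5 kb and 2 across. Closest without crossing were Olfr378, 0.036 kb from the type 5 segment of Olfr1, and Olfr1386, 0.053 kb from the type 5 segment of Olfr1387.

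At the edges of the clusters the outermost members were compared with what lies outside. The outermost member had the type of the nearest gene outside that is not an Olfr gene at 11 of 18 edges, 3 of 4 on chromosome 10 and 8 of 14 on chromosome 11. How often adjacent genes elsewhere share a type was not counted, so this has no background. From the outermost member outward, the first border lay 71.2 kb away at the median on chromosome 10 (14.9 to 163.9 kb) and 32.9 kb on chromosome 11 (0.781 to 99.9 kb). It lay under 10 kb away at none of the chromosome 10 edges and 5 of the chromosome 11 edges. Beyond that border came type 3 at 10 of 18 edges, 1 of 4 on chromosome 10 and 9 of 14 on chromosome 11. Type 3 segments were the most numerous kind on both whole chromosomes, 503 on chromosome 10 and 543 on chromosome 11. Types 1, 2, 4 and 5 had 491, 345, 211 and 208 segments on chromosome 10, and 412, 258, 304 and 155 on chromosome 11. At the 4 edges that were themselves type 3, 1 on chromosome 10 and 3 on chromosome 11, the next segment could not be type 3.

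On chromosome 10, Olfr1358 and Pdxk, the kinase that activates vitamin B6, lay in the same type 3 segment, 33.2 kb apart. Olfr57 and 2610008E11Rik were both type 1. At the other cluster Olfr827 and Neurod4, a transcription factor of neurogenesis 57.0 kb away, were both type 5. The edge that differed was at Olfr9 (type 1), where type 3 began 14.9 kb outward and Mettl7b was type 3.

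Of the chromosome 11 edges, 6 were type 4, 3 type 3, 2 type 1, 2 type 5 and 1 type 2. The type was shared by Olfr1396 and Ifi47, an interferon-induced GTPase, and by Olfr30 and Lypd9, all in type 4. Olfr1380 and 1700024J04Rik, and Olfr20 and Spata22, a gene of meiotic recombination, were in type 5. Olfr1373 and Ppp2ca, a phosphatase catalytic subunit, and Olfr1371 and Skp1, an adaptor of ubiquitin ligases, were in type 1, Skp1 for 72.6% of its body. A type 3 segment of 15 kb began 6.01 kb outward from Olfr1371, so type 1 did not run unbroken to Skp1. Olfr311 and Gm12258 were in type 3.

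The sharpest change was at Olfr222 (type 4), where a type 3 segment of 100 kb began 0.781 kb outward and Nlrp3, an inflammasome sensor 3.83 kb away, was type 3. Type 3 began 9.39 kb beyond Olfr412 (type 2), toward Rap1gap2, and 9.997 kb beyond Olfr464 (type 4), toward Dynll2, a dynein light chain. It began 18.96 kb beyond Olfr462 (type 4), where Epx, eosinophil peroxidase, was 52.0% type 3. At Olfr1375 (type 3) the next gene, Zfp354a, was type 4, and at Olfr225 (type 3) Mprip was 59.9% type 2. In the 200 kb on each side of the clusters, pooled, chromosome 10 was 39.5% type 1, 38.1% type 3, 20.5% type 5, 1.25% type 2 and 0.625% type 4. On chromosome 11 the same windows were 45.1% type 3, 25.1% type 4, 16.1% type 1, 6.94% type 2 and 6.72% type 5. By length, all of chromosome 10 was 38.2% type 1, 18.8% type 3, 21.4% type 5, 12.4% type 2 and 9.23% type 4. All of chromosome 11 was 26.7% type 3, 20.3% type 4, 34.8% type 1, 8.33% type 2 and 9.93% type 5. Inside the clusters lay 14 other protein-coding genes, of which 9 were type 4, 4 type 1, 1 type 2 and none type 3 or type 5.

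By the MOR names that the gene table gives, 147 of the 151 members fell into 37 families, 17 on chromosome 10, 20 on chromosome 11 and none on both. MOR families group receptors by likeness of protein sequence. Of 23 families with at least 2 members here, 7 lay in 1 type. MOR275 (6 members, in the Olfr30 to Olfr311 cluster) and MOR210 (5 members, in the Olfr9 to Olfr827 cluster) were wholly type 5, and MOR240, which is Olfr462 to Olfr464, wholly type 4. The largest family, MOR256, had 20 members in 4 clusters of chromosome 11 and was found in all 5 types, 12 of them in type 5. The rest were 3 type 4, 2 type 2, 2 type 1 and 1 type 3 genes. MOR135 (18 members, in the Olfr20 to Olfr412 cluster) had 15 in type 1 and 3 in type 5.

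On chromosome 10, MOR114 had 11 members in type 1 and 2 in type 5, MOR110 6 and 3, and MOR111 3 and 6 with Olfr775 in type 2. MOR139, the main family of the Olfr1358 to Olfr57 cluster, was 4 type 1 and 3 type 3. Neighbours of the same family shared a type in 26 of 33 cases on chromosome 10 and neighbours of different families in 24 of 31. On chromosome 11 the counts were 43 of 54 for the same family and 9 of 19 for different families. Most different-family neighbours that differed in type lay in the Olfr30 to Olfr311 cluster. There only Olfr324 with Olfr323 and Olfr318 with Olfr317 shared a type. In the other chromosome 11 clusters only Olfr51 with Olfr54, Olfr397 with Olfr398 and Olfr398 with Olfr139 differed. The lower count for different families thus rests mainly on a single cluster. Neighbours read from the same strand shared a type in 28 of 35 cases on chromosome 10 and 31 of 42 on chromosome 11, and those on opposite strands in 6 of 10 and 11 of 16. The gap between neighbours had a median of 16.0 kb for the same type and 27.1 kb for different types on chromosome 10, and of 17.0 and 18.3 kb on chromosome 11.

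Sequence before the start was at hand for 127 members, 55 on chromosome 10 and 72 on chromosome 11. In 97 of them, 50 and 47, the annotated start reads ATG, so those windows precede the coding start and are no transcription start. Of all 32851 windows of the table, 1915 have a start that reads ATG. Member windows and all windows are thus largely of different kinds, and the comparisons with all windows below carry that limit. The start is the first base of the annotated body in 121 of the 127 and lies inside the body in 6. Types given for windows are those of the body, and 4 windows (Olfr1358, Olfr1353, Olfr1393 and Olfr1386) lay mainly in another type. Member windows were poor in G and C, with a median of 31.6% on chromosome 10 and 39.0% on chromosome 11, against 52.4% over all 32851 windows of the table. No CG dinucleotide occurred in 36 of 55 windows on chromosome 10 and 23 of 72 on chromosome 11, against 2584 of all windows. Among members, type 1 had a median of 30.8% G and C on chromosome 10 (28 windows) and 31.2% on chromosome 11 (23). Type 5 had 32.4% on chromosome 10 (21) and 40.0% on chromosome 11 (20), and type 4 40.4% on chromosome 11 (17). All 18 type 4 windows held at least 1 CG.

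Types and clusters overlap in this measure. Within the Olfr9 to Olfr827 cluster, type 1 windows had a median of 31.2% and type 5 windows 32.4%, within ranges of 24.0 to 50.8% and 24.4 to 39.2%. In the Olfr20 to Olfr412 cluster the 19 type 1 windows had a median of 30.0%, the 4 type 2 windows 37.8% and the 2 type 5 windows 43.6%. Both type 5 windows belonged to long bodies, Olfr20 (3841 bp, 46.4%) and Olfr1 (4420 bp, 40.8%). Type 1 windows of long bodies were at 42.0% (Olfr378), 43.6% (Olfr389), 41.2% (Olfr391) and 43.2% (Olfr392), with Olfr23 lower. Those of the shorter type 1 bodies ran from 25.6% (Olfr390) to 40.8% (Olfr406). The part of body length in these medians was not tested. In the Olfr1396 to Olfr1380 cluster type 5 had 37.6% and type 4 39.4%. All 18 windows of the Olfr30 to Olfr311 cluster, of all 5 types, had a median of 41.0%.

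**Figure D5:**
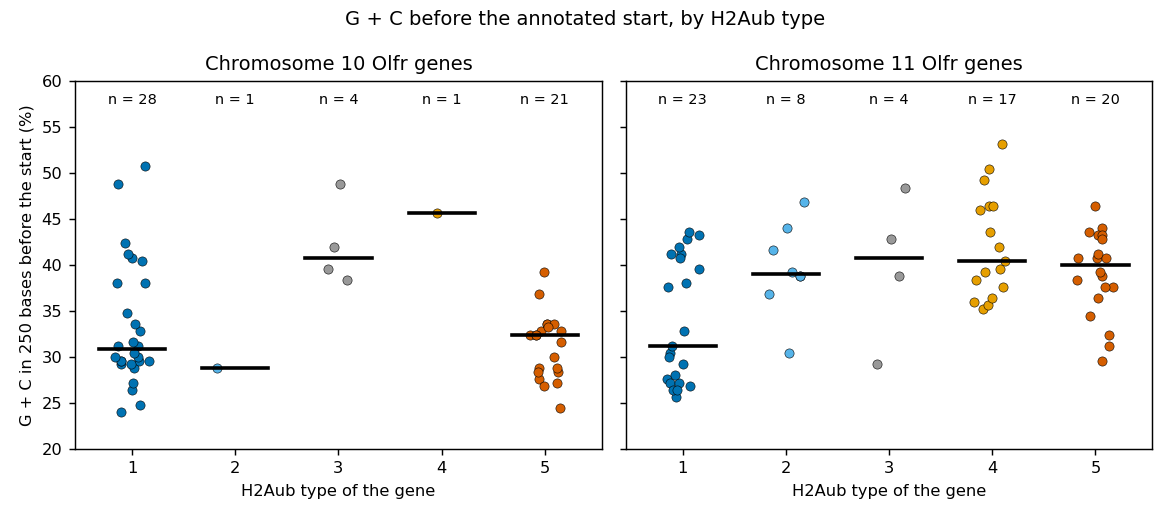
Percent G and C in the 250 bases before the start (vertical axis) of each member by H2Aub type, on chromosomes 10 and 11, with points shifted sideways to separate them and black bars for medians. Type 1 medians are 30.8% on chromosome 10 and 31.2% on chromosome 11, and type 5 medians 32.4% and 40.0%.

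Of 4 motifs searched on both strands with overlaps allowed, TATAAA (the TATA box letters) was in 47.3% of chromosome 10 windows and 27.8% of chromosome 11 windows, against 12.4% of all windows. TAATGA, a homeodomain core, was in 23.6% and 38.9%, against 8.59%. TAATTA, another such core, was in 14.5% and 19.4%, against 4.84%. CCCNNGGG, the core that Ebf factors bind, was in 3.64% and 2.78%, against 11.8%. TAATGA was in 13 of 23 type 1 windows of chromosome 11 and 7 of 28 type 1 windows of chromosome 10. Base composition and the share of windows whose start reads ATG differed between members and all windows, and between the chromosomes, as given above. Their part in these shares was not tested. A match is no more than those letters in the window.

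Pairs of windows were aligned over 300 bases to ask whether like sequence lay in like type. Of all pairs, 11 reached 80% identity, 7 on chromosome 10 and 4 on chromosome 11, and 8 of the 11 were of the same type, 6 of them in the same segment. Over all 1733 pairs within a cluster, 46.1% were of the same type, with a median identity of 52.9%. The 3 exceptions were the pairs printed above, Olfr775 with Olfr776 and Olfr1382 with Olfr1373, and Olfr792 (type 1) with Olfr798 (type 5), which lie 84.6 kb apart on chromosome 10 with 87.5% identity. Of the 11 pairs, 10 had both genes in the same cluster. Adjacent members, whatever their likeness, shared a type in 107 of 142 cases. The part of nearness in the 8 of 11 was not tested. Between the chromosomes, 3960 pairs had a median identity of 51.5% and none was above 58.4%. Olfr1354 and Olfr8, both type 1, were 99.7% identical, Olfr1381 and Olfr1380 94.7% (both type 5), Olfr331 and Olfr325 92.6% (both type 5), and Olfr765 and Olfr767 91.8% (both type 1). How reads that match more than 1 place were treated is not given in the sources used here. Any effect on the types of genes with such alike windows is therefore unknown. The gene bodies as a whole, on which the types rest, were not aligned.

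Of a list of 27 genes that olfactory receptors work with, or that regulate them, 13 were type 3, 8 type 4, 5 type 1 and 1 type 2. None was type 5, the type of 49 of the 151 members and of 9.53% of all protein-coding genes. Among the signalling genes, Gnal (the olfactory G protein), Adcy3 (its adenylyl cyclase) and the channel subunits Cnga4 and Cngb1 were type 3, as were Rtp1 and Rtp2, which carry receptors to the surface. The chloride channel Ano2 was type 2. Type 4 held Ebf1, Ebf2, Ebf3, Ebf4, Lhx2 and Emx2, transcription factors of which Ebf, Lhx2 and Emx2 are known to regulate Olfr genes, together with Omp, the marker of mature sensory neurons, and Slc24a4. Type 1 held Lbr and Cbx5, proteins of heterochromatin, Kdm1a, a histone demethylase, Bptf, a subunit of a chromatin remodeller, and Pde1c, a phosphodiesterase. Pde1c was close to a tie, with 30.9% of its body in type 1 and 30.5% in type 5. Types 3 and 4 held 48.1% and 29.6% of the list, against backgrounds of 33.8% and 14.0%.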

How the data were processed

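Libraries (29) were made by CUT&RUN for either mark. The submitters' processing notes name deepTools 3.0.2, Picard 2.8.0, Bowtie2 2.3.4.3 and Trim Galore 0.4.5, with mm10 as the build. The authors deposited 1 table for the whole series, whose name gives ChromHMM, software that learns chromatin states from signal tracks. The key to its types is not given in the sources used here, nor are its version and the libraries that entered it. What was deposited per segment is a category from 1 to 5, neither a score nor a level. Of the table's columns, 0 held values of single samples.

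Segments (31563) were read in bins of 5 kb, and in 261 bins where 2 overlapped the shorter was used. Genes came from RefSeq GRCm38.p6 (46709 kept), each with the type over most of its body. Other gene assignments, cluster gaps and window sizes were tried as alternatives. Window sequences came from the RefSeq promoter table, whose strand was used since the gene table gives none. They were aligned globally with Biopython 1.88 (match 2, mismatch -1, gap -3 and -1), a choice made after the files had been seen, in place of the proteins, which were not analysed here. Shares, clusters and intervals were computed in Python 3.11.15 with numpy 2.4.6, pandas 2.3.3 and scipy 1.17.1, and the code was tested on simulated segments. No test was made, since the table has no replicates, and depth could not be read from it.

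The genes named are, for each cluster, the first and last member, members outside the cluster's main type, members that cross a border and the nearest other gene on each side, with the rarest type of each chromosome. The nearest gene at 1 edge is not reported here. The members and the lists were chosen with earlier results of these data known.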

Additional observations from a re-analysis of the deposited data

How the results depend on the processing

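Member types changed little with the way a gene is assigned. Settings that read only the body could hardly change them, since 146 of the 151 bodies lay wholly in 1 type. The small changes under those settings are therefore no sign of stability. The middle bin and the longer segment changed the type of 0 members, the lower-coordinate end of the body 2, the higher-coordinate end 4, a margin of 5 kb on each side 1 (Olfr1393) and a margin of 20 kb 9, among them Olfr775, Olfr51, Olfr322, Olfr398 and Olfr59, which lie in segments of 5 or 10 kb. With 20 kb on each side the chromosome 10 share of type 2 was 0%. Of 120 shares recomputed, 10 in each setting, 100 stayed within the interval of the reported share. That total depends on how many settings of each kind were tried. Among the alternative gene assignments only 1 share moved, with 20 kb on each side. Counting each cluster once moved 8 of 10, leaving out the largest clusters 6 and counting each segment once 5.

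The weight given to each cluster mattered more. With each cluster counted once, by the type with most of its span (2 clusters on chromosome 10, 7 on chromosome 11), chromosome 10 was 0% type 2, 0% type 3, 50.0% type 4 and 0% type 5, and chromosome 11 was 0% type 2, 0% type 3, 57.1% type 4 and 14.3% type 5. Without the largest cluster of each chromosome, chromosome 10 members (10 left) were 0% type 2, 50.0% type 3, 10% type 4 and 0% type 5, and chromosome 11 members (53 left) were 9.43% type 1 and 33.96% type 4. With each segment counted once, an alternative chosen after the data were seen, chromosome 10 was 20.0% type 3 and 20.0% type 5 (20 segments), and chromosome 11 was 18.2% type 1, 18.2% type 3 and 18.2% type 5 (33 segments).

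Beside the clusters, windows of 50 kb gave 0% type 2 and 0% type 4 on chromosome 10, and 2.06% type 2 and 14.0% type 5 on chromosome 11. Windows of 500 kb gave 0.253% type 4 and 8.28% type 5 on chromosome 10, and 4.02% type 2 and 3.23% type 5 on chromosome 11. Joining members less than 100 kb apart gave 3 clusters on chromosome 10 and 9 on chromosome 11, and less than 1000 kb apart 2 and 6. No paired analysis was possible because the results come from no test. The cause of these changes was not tested.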

Other observations

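Genes of a second chemosensory family lay beside both chromosome 10 clusters. The 8 vomeronasal receptor genes Vmn2r80 to Vmn2r87, which serve pheromone sensing, were found within 500 kb beyond their higher ends. All 8 lay wholly in type 1, which held 41.2% of all protein-coding genes on chromosome 10. The 8 genes form 2 runs of neighbours and are not independent. Vmn2r80 to Vmn2r83 follow Olfr57 (type 1), and Vmn2r84 to Vmn2r87 follow Olfr827 (type 5), so that at the second of these edges the 2 families were in different types. Whether vomeronasal genes elsewhere share type 1 was not tested.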
